A study of Mus musculus with 21 samples.

Results

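Hematopoietic stem cells (HSC) of transplanted mice were compared with HSC of physically active mice, over all genes of the deposited table that holds both groups. The comparison used 6 of the 21 RNA sequencing libraries of the study, 3 per group, and 13633 of the 13636 listed genes were tested. All 6 libraries came from mice with the MMTV-PyMT transgene, in which a mouse mammary tumour virus promoter drives the polyoma middle T antigen, chiefly in mammary epithelium. Active HSC came from physically active mice at week 12. Transplant HSC came from sedentary mice that had received cells of a physically active mouse, at week 14. Week, activity of the host and transplantation differ together between the groups and cannot be told apart. The labels do not say which cells were transplanted, how the hosts were prepared or whether the sorted cells descended from donor or host. They call the libraries biological replicates without tying them to single animals, so p-values measure the spread between these libraries.

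HSC renew themselves in the bone marrow and give rise to all blood lineages through multipotent progenitors. Progenitors with high Flt3, a cytokine receptor, are primed towards lymphoid fates, whereas C/EBP factors, Gfi1 and the genes of neutrophil granules mark the granulocyte path. A part of the stem cell pool carries platelet genes such as Vwf and gives rise to platelets preferentially. Transplantation makes stem cells rebuild the marrow of the host.

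Recovered library totals ran from 20640799 to 72417315 reads. Replicate 3 was the deepest library of each group and the only one with a letter in its library name, so depth and name style mark a possible batch that crosses the groups. One library was in doubt. The active library numbered 6 appears in 2 deposited tables, and of the 13380 genes in both, 13086 held other reads, whereas the other active libraries differed at 4 genes each. Which column holds the library could not be told from the files. The column of the transplant table, active replicate 2, correlated with sedentary HSC at 0.984 to 0.987 and with transplant HSC at 0.942 to 0.956 (Pearson, log2 values across 12423 genes, which are not independent). Active replicate 3 correlated with sedentary HSC at 0.971 to 0.992 and with transplant HSC at 0.947 to 0.974. For active replicate 1 these ranges were 0.971 to 0.975 and 0.967 to 0.979. The other column correlated with transplant HSC at 0.964 to 0.978 and with sedentary HSC at 0.913 to 0.932. Results for the whole table and for many lists and genes are therefore given with all 6 libraries, without active replicate 2, and with the other column in its place. Where no setting is named, a value used all 6 libraries.

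The label of the cells was checked against stem cell genes, by normalized count per kilobase of exon. Kit and Ly6a, the surface markers of stem and progenitor sorting, lay at the 82.9 and 85.9 percentiles of the tested genes over all 6 libraries, and Cd34, which marks progenitors, at 92.2. Genes more specific to long-term HSC were low. Procr lay at the 28.7 percentile, Hlf at 36.7, Mecom at 15.8 and Fgd5 at 15.4, and Hoxb5 was not analysed here. Mpo, the peroxidase of primary granules, had 30500 normalized counts per kilobase in active and 59200 in transplant HSC, against 42.7 and 31.3 for Procr. Elane and Ctsg of the primary granules lay at 99.9, but other genes of that path were lower, such as Gfi1 at 84.8, and Ifitm1 of the long-term HSC list lay at 99.8. Mki67, a proliferation gene, lay at the 97.4 percentile. In bulk RNA, a difference in the number of cells of a type and a difference in RNA per cell cannot be told apart.

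Promoters of genes from the lists described below are shown because many platelet and granule genes were higher in transplant HSC. GATA factors act in megakaryocytes and C/EBP factors in granulocytes. The 250 bases before the start of each gene were searched on both strands for a motif of GATA factors, spelled AGATAA, and for one of the C/EBP family, spelled TTGCNNAA. AGATAA stood in 9.99% of 32851 RefSeq promoters and in 4 of 16 promoters of the megakaryocyte and platelet list, and TTGCNNAA in 9.56% of all and in 8 of 32 promoters of the 2 granule lists. TTGCNNAA also stood in 3 of the 16 platelet promoters (18.8%) and AGATAA in 2 of the 32 granule promoters (6.25%). The platelet list holds 24 genes, of which 16 had a promoter searched. Mpig6b, which had both motifs, and Ly6g, which had TTGCNNAA, are in these counts, but their expression was not analysed here. The third motif searched, CCGGAAGT of ETS factors, stood in 2.88% of all promoters and in 0 of either set. The sequences are from RefSeq (GRCm38.p6), written 5′ to 3′ on the strand of the gene, with matches in capitals (TTATCT in capitals is the former motif on the opposite strand). Gp5 and Gp6 encode platelet glycoproteins, and Mmp8 encodes the neutrophil collagenase.
Gp5, chr16:30310782-30311031, minus strand: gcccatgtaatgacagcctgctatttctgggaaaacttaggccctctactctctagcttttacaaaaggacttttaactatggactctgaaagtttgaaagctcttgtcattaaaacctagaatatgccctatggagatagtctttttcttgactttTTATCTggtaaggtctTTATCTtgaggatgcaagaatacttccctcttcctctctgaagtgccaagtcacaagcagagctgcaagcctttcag
Gp6, chr7:4397745-4397994, minus strand: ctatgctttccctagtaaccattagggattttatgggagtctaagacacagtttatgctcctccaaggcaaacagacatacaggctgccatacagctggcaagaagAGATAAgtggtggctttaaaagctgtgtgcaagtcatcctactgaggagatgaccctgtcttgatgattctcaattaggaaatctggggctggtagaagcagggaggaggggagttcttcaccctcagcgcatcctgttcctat
Mmp8, chr9:7558179-7558428, plus strand: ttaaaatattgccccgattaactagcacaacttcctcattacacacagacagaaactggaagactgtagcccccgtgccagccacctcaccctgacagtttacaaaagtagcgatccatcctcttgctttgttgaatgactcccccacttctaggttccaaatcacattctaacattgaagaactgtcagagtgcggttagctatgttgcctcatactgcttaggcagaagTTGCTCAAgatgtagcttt
A match is a run of letters and no evidence of binding. Gp5, with 2 matches, had 285, 198 and 434 normalized counts in active and 1769, 1071 and 563 in transplant HSC. Gp6 had 15.4, 0 and 4.97 against 57.5, 32.9 and 21.9, and Mmp8 had 5023, 1432 and 2308 against 5369, 6843 and 6404. The groups did not overlap at any of the 3 genes. DESeq2, described below, called Gp5 (adjusted p-value 0.000101, or 0.00875 without active replicate 2) but not Gp6 or Mmp8 (adjusted p-values 0.0583 and 0.215), and limma called none of them.

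Which genes differed was asked first over the whole table. The main test was limma on log2(normalized count + 1) with Benjamini-Hochberg adjustment over all genes tested, and a gene was called at an adjusted p-value under 0.05. It called 7 genes, 0.0513% of those tested. Of these, 1 was higher in transplant HSC (0.00734%) and 6 were lower (0.044%), while 2422 genes had an unadjusted p-value under 0.05. Without active replicate 2 limma called 0 genes (1351 below 0.05 before adjustment). With the other column numbered 6 it called 1 gene, none of the 7 (331 below 0.05 before adjustment). The gene called there was Adamtsl2, a secreted matrix protein (log2 fold change -3.27), which was named after its value was seen. The count was 79 without active replicate 1, 4 without active replicate 3, 2 without transplant replicate 1, 0 without transplant replicate 2 and 22 without transplant replicate 3. With the replicate number as a block, which pairs libraries by number, it was 0 (2832 below 0.05 before adjustment).

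Count models on the recovered reads differed widely with all 6 libraries, from 1 called gene with edgeR to 1126 with DESeq2. DESeq2 called 757 genes higher in transplant HSC (5.55% of the 13636 genes of the table) and 369 lower (2.71%). Without active replicate 2 it called 309 higher (2.27%) and 119 lower (0.873%), of which 293 and 116 were also called in the same direction with all libraries. With the other column it called 2 genes, Prdm16, lower, and H2-Q7, a nonclassical MHC class I gene, higher. H2-Q7 has near-identical relatives and was named after its value was seen. edgeR called 1 gene with all libraries, Moxd1 (2587 below 0.05 before adjustment). In the authors' deposited table, 1080 genes passed 0.05 after adjustment, 733 of them higher and 347 lower, and 1078 of them were among the DESeq2 calls. Below, a gene is said to have risen or fallen only where limma called it with all libraries.

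The groups did not overlap at 1789 genes that were higher (13.1% of those tested) and 1652 that were lower (12.1%) in transplant HSC. With the other column the groups did not overlap at 6% of genes in either direction, against 25.2% with all 6 libraries. At least 2-fold differences were more often upward, with 917 genes higher and 475 lower. Without active replicate 2 these counts were 726 and 537, and with the other column 281 and 284.

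**Figure D1:**
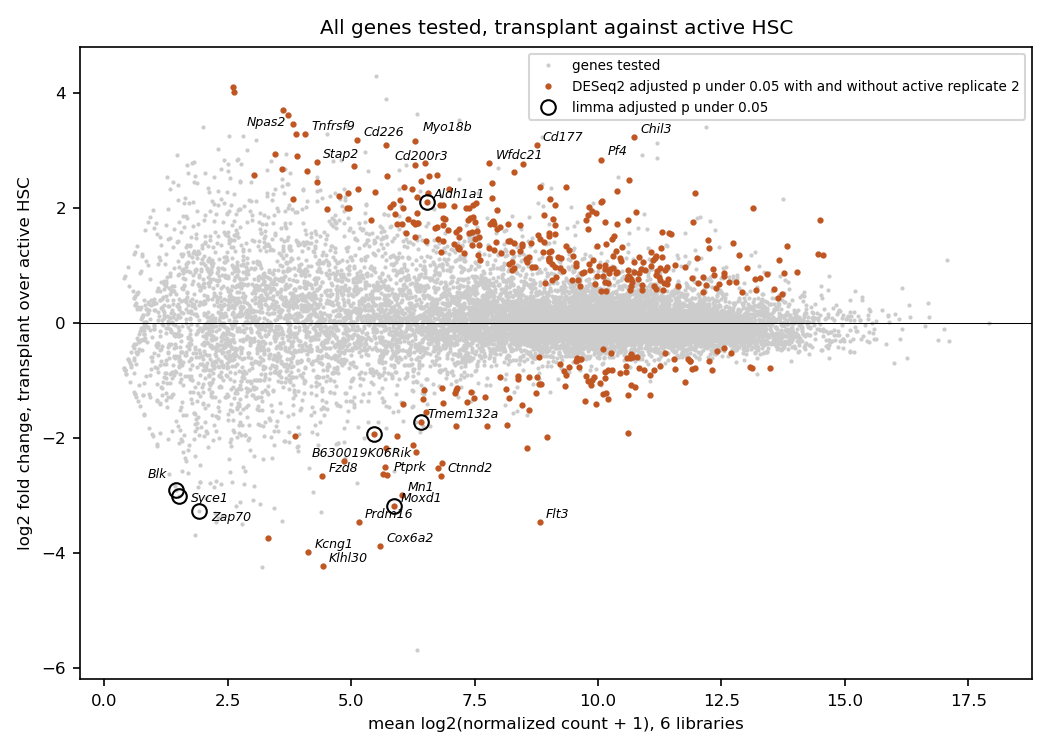
Log2 fold change of transplant over active HSC (vertical axis) against mean log2(normalized count + 1) over the 6 libraries (horizontal axis) for the 13633 genes tested. Circles mark the 7 genes called by limma, and coloured points the genes called by DESeq2 both with and without active replicate 2; the latter lie mostly above 0, 293 higher against 116 lower.

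Of the 7 genes called by limma, Aldh1a1 was the 1 that rose. Aldh1a1 (chr19:20492715-20643465, GRCm38) encodes a retinaldehyde dehydrogenase that is used as a stem cell marker in several tissues. Its normalized counts were 43.9, 38.9 and 48.4 in active and 209, 200 and 169 in transplant HSC. Each transplant library was more than 3 times as high as each active one. Aldh1a1 rose from 43.7 ± 4.78 to 193 ± 20.9 (SD, n = 3 each), or 2.11 ± 0.14 on the log2 scale (standard error; limma adjusted p-value 0.0206). Without active replicate 2 the fold change was 2.03 (limma adjusted p-value 0.115), and with the other column, where the gene had 682 normalized counts, it was 0.76. The other column thus lay above all 3 transplant libraries. Adjusted p-values of this gene ran from 8.63e-11 with DESeq2 to 1 over all alternatives.

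Moxd1 (chr10:24223517-24302790) encodes a monooxygenase related to dopamine beta-hydroxylase. Its normalized counts were 172, 189 and 165 in active HSC and 23.9, 15.8 and 16.2 in transplant HSC, and the groups lay far apart. Moxd1 fell from 175 ± 12.4 to 18.6 ± 4.53 (SD, n = 3 each), 9.4-fold, or -3.19 ± 0.19 on the log2 scale (standard error; limma adjusted p-value 0.0203). The fold change was -3.13 without active replicate 2 (limma adjusted p-value 0.11). With the other column, which held 1.41 normalized counts, it was -1.07, and adjusted p-values ran from 1.59e-18 to 1 over the alternatives. On the scale joined with the sedentary table, sedentary HSC had 252, 332 and 193 normalized counts of Moxd1, so the other column and the transplant libraries were low and all others high.

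Tmem132a, a transmembrane protein gene, had 148, 158 and 154 normalized counts in active and 49.1, 42.6 and 45.4 in transplant HSC, and fell by 1.73 on the log2 scale (standard error 0.11, limma adjusted p-value 0.0203). In the annotation, 33.9% of its exon bases overlap Slc15a3 on the opposite strand, and whether counting used strand is not given in the sources used here. B630019K06Rik had 75.9, 93.8 and 85.6 against 19.6, 23.1 and 21.5 normalized counts and fell by 1.94 (standard error 0.13, limma adjusted p-value 0.0206). For both genes the groups lay apart with all 6 libraries. The log2 fold changes were -1.71 and -1.87 without active replicate 2, where limma called neither (adjusted p-value 0.115 for each). They were -0.67 and -1.004 with the other column, which held 16.9 and 12.7 normalized counts, below every transplant library (limma adjusted p-value 1 for each). Over the alternatives, adjusted p-values ran from 1.47e-07 to 1 for Tmem132a and from 2.29e-05 to 1 for B630019K06Rik.

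The remaining calls had few reads. Syce1, of the synaptonemal complex, Blk, a B lymphoid kinase, and Zap70, a T cell receptor kinase, had at most 3 reads in each transplant library, which was treated as the floor. Against a floor of 3 reads per library, averaged over the group, Syce1 was at least 2.35-fold lower, Blk at least 2.2-fold lower and Zap70 at least 3.54-fold lower in transplant HSC. Active libraries had 5.93 to 8.69 normalized counts of Syce1, 5.36 to 8.69 of Blk and 10.7 to 10.8 of Zap70. These bounds cover counting error only. Without active replicate 2 limma called none of these genes (adjusted p-values 0.0892 for Syce1 and for Blk, and 0.251 for Zap70). The other column held 0 normalized counts of Syce1 and of Blk and 2.82 of Zap70.

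A further set was named by size among genes with no overlap, at least 50 normalized counts on average in one group and a DESeq2 call with and without active replicate 2. None of them other than Moxd1 was called by limma. Their choice used this contrast, so their values are a description. Among the genes higher in transplant HSC, Chil3, a chitinase-like protein of neutrophil precursors, had 1612, 293 and 357 normalized counts in active and 5233, 4794 and 5735 in transplant HSC. Chil3 has close relatives, so its counts carry that uncertainty. Cd177, a neutrophil surface glycoprotein, had 279, 110 and 103 against 1228, 1719 and 946. Pf4, platelet factor 4, had 659, 196 and 485 against 5522, 2879 and 1468. In these 3 genes active replicate 1 was the highest of its group and lay below every transplant library.

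Cd200r3, an activating receptor of basophils and mast cells, had 14.2, 16.1 and 21.1 normalized counts in active and 222, 186 and 86.0 in transplant HSC, 9.6-fold higher on average. Its active libraries were closer together than those of Chil3 or Pf4. The log2 fold changes of Cd200r3 were 3.10 with all libraries, 3.07 without active replicate 2 and 1.90 with the other column. Npas2, a clock transcription factor, Tnfrsf9, a costimulatory receptor, Cd226, an adhesion receptor of lymphocytes and platelets, Myo18b, a myosin, Stap2, a signalling adaptor, and Wfdc21, a secreted protein of neutrophils, completed the set with log2 fold changes of 2.79 to 3.29. Those fold changes ran from 2.29 to 2.78 without active replicate 2 and from 1.31 to 1.79 with the other column. Npas2 shows the spread among transplant libraries, with 128, 35.3 and 20.3 normalized counts against 9.49, 1.34 and 3.31.

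Among the genes lower in transplant HSC, Flt3 had 986, 2131 and 1606 normalized counts in active and 119, 80.3 and 256 in transplant HSC, 10.4-fold lower on average. Its log2 fold change was -3.47 with a standard error of 0.50 (limma adjusted p-value 0.126), -3.21 without active replicate 2 and -1.75 with the other column. The other column held 60.6 normalized counts of Flt3, below every transplant library. Mn1, a transcriptional coregulator, had 99.7, 300 and 202 against 32.3, 13.4 and 24.3. Ptprk, a receptor phosphatase, had 122, 125 and 150 against 21.1, 29.2 and 13.4, and Ctnnd2, a catenin, 174, 520 and 247 against 50.5, 26.8 and 62.0.

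Prdm16 differed from the rest of this set in the other column. It encodes a zinc finger regulator known for stem cell maintenance. Its normalized counts were 80.7, 133 and 149 in active and 8.42, 6.08 and 17.4 in transplant HSC, and 123 in the other column. The log2 fold change was therefore nearly the same in the 3 settings, at -3.46 with all libraries, -3.37 without active replicate 2 and -3.43 with the other column. DESeq2 gave adjusted p-values of 1.19e-08, 3.8e-05 and 7e-06 in these settings, while limma gave 0.118 with all libraries and the alternatives reached 0.664. Klhl30, Kcng1, Cox6a2 and Fzd8 were the other genes of the set, with log2 fold changes of -4.23, -3.99, -3.89 and -2.67. Cox6a2, the muscle form of a cytochrome oxidase subunit, had 5.61, 4.87 and 49.5 normalized counts in transplant HSC, so replicate 3 stood apart, and 10.3% of its exon bases overlap Itgad on the opposite strand.

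**Figure D2:**
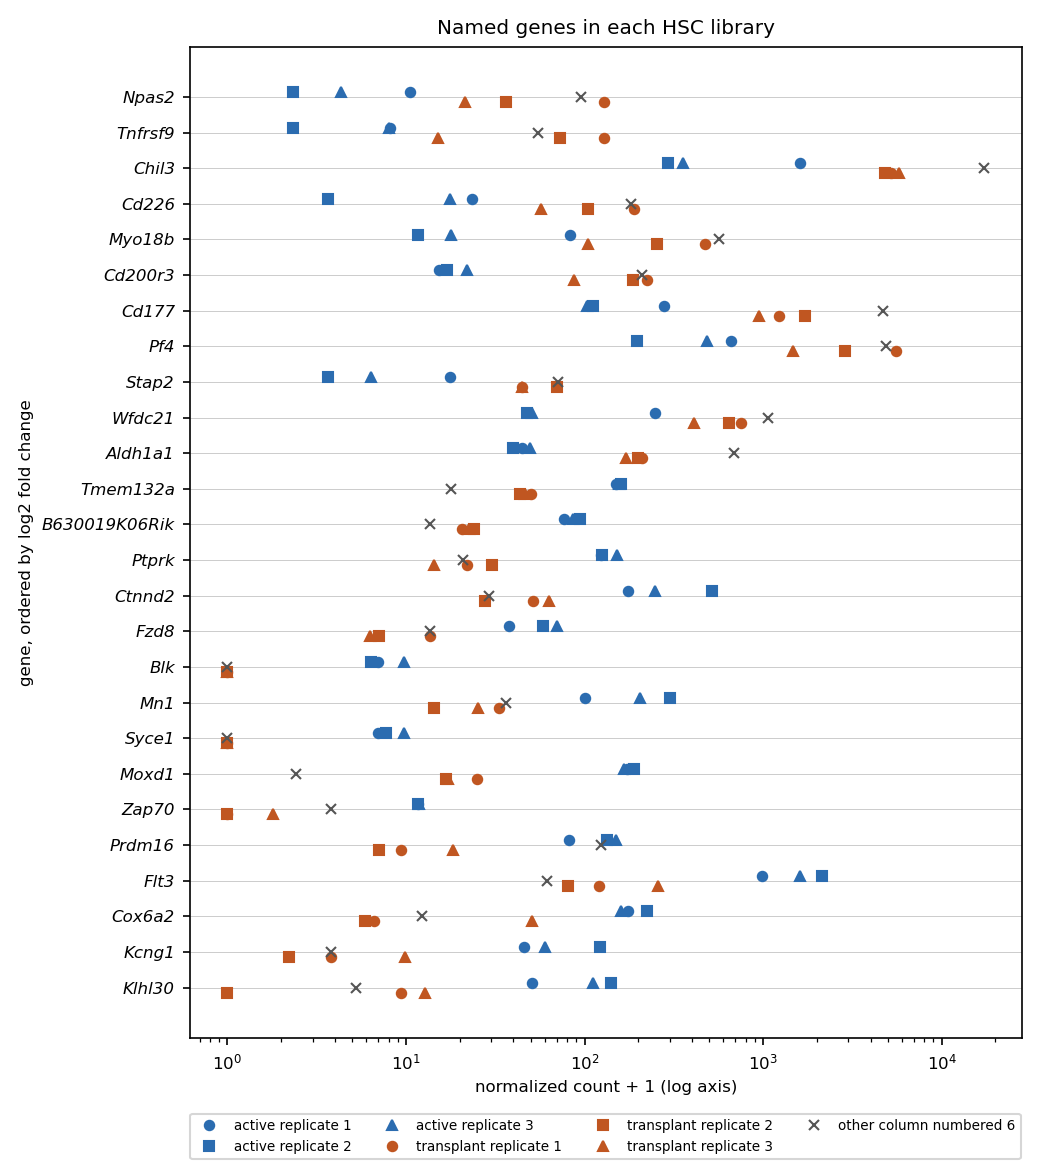
Normalized count + 1 (log axis) of the genes called by limma and of those named by size, in each of the 6 libraries and in the other column numbered 6 (cross, on the scale joined with the sedentary table). Blue symbols are active and orange symbols transplant libraries, with circle, square and triangle for replicates 1, 2 and 3; for Prdm16 the cross lies with the active libraries, and for Flt3, Moxd1 and Pf4 with or beyond the transplant libraries.

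Members named below that are not among the 3 highest of their list were chosen after their values were seen. The lists and their members were chosen with earlier results of these data known, so their shares and medians are a description. Gene lists for the lineages of the marrow were then described by their counts and medians, beside those of all genes tested, whose median log2 fold change was 0.0003. DESeq2 called 5.55% of all genes as higher and 2.71% as lower, or 2.27% and 0.873% without active replicate 2. Megakaryocyte and platelet genes were higher in transplant HSC. Of the 24 listed genes 23 were tested, each with a fold change above 0, 17 did not overlap (73.9%, against 13.1% of all genes) and 17 were called by DESeq2 as higher, 12 of them also without active replicate 2. The median was 1.69, or 1.26 without active replicate 2 and 0.67 with the other column. limma called none of them. The summed normalized counts were 28520, 25430 and 34920 in active and 92820, 64870 and 40200 in transplant HSC.

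Itga2b and Itgb3 encode the subunits of the platelet fibrinogen receptor. Itga2b had 2758, 2264 and 3981 normalized counts in active and 11720, 9159 and 4635 in transplant HSC. Itgb3 had 4426, 4335 and 6191 against 17600, 12410 and 6365, so replicate 3 of the groups nearly met. Vwf, von Willebrand factor, had 783, 343 and 789 against 4854, 3110 and 1695, with DESeq2 adjusted p-values of 1.76e-07 and 2.7e-05 with and without active replicate 2. The glycoprotein genes Gp1ba, Gp1bb, Gp5 and Gp9 had log2 fold changes of 1.78, 2.00, 1.81 and 1.69.

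The size of the platelet difference was not even across the libraries. Between replicates 1 and 2 of the groups the median of the list was 2.28, and between the replicate 3 libraries, which share depth and name style and are 1 per group, it was 0.39. Leaving out transplant replicate 1 gave a median of 1.18 and leaving out transplant replicate 3 gave 2.01. The part of depth and name style in this unevenness was not tested.

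Neutrophil genes were also higher. Specific and tertiary granules form at later stages of granulocyte maturation. Of their 18 listed genes 17 were tested, each with a fold change above 0, and 13 did not overlap (76.5%, against 13.1% of all genes). DESeq2 called 9 as higher, 7 without active replicate 2. The median was 2.12, or 1.75 without active replicate 2 and 0.67 with the other column. Lcn2, a siderophore-binding protein, had 1035, 249 and 536 normalized counts in active and 2506, 2034 and 2227 in transplant HSC. Ngp, a granule protein, had 2207, 332 and 448 against 5615, 4990 and 5154, and Ltf, lactoferrin, 1100, 115 and 57.1 against 2438, 3126 and 2667. Lyz2, lysozyme, had 14030, 3835 and 5058 against 51490, 32030 and 14610. In each of these active replicate 1 lay well above the other active libraries and below every transplant library. Ly6g was not analysed here.

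The other column held more of several of these transcripts than any transplant library, with 33050 normalized counts of Ngp, 23300 of Ltf and 17300 of Chil3. A ratio of group means then turned: DESeq2 with the other column gave log2 fold changes of -0.36 for Cd177 and -0.27 for Chil3, neither called, and a list median of -0.079.

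Primary granule and promyelocyte genes, which come earlier in the same path, were higher by less. The 17 genes were tested, each with a fold change above 0, and 12 did not overlap (70.6%, against 13.1% of all genes). DESeq2 called 10 as higher, 7 without active replicate 2. The median was 1.09, or 0.69 without active replicate 2 and 0.44 with the other column. Elane, neutrophil elastase, had 19950, 7018 and 13680 normalized counts in active and 39680, 42430 and 47310 in transplant HSC. Mpo had 162000, 52310 and 99160 against 181500, 187900 and 238800. Gm11505 covers 15% of the Mpo exon bases on the opposite strand. Cebpe, the C/EBP factor of late granulocyte maturation, had 963, 273 and 517 against 3119, 2252 and 1575. Gfi1, a repressor that marks the granulocyte path, had 2136, 1088 and 1544 against 3205, 3202 and 4016. Ctsc and Clec5a overlapped, with fold changes of 0.17 and 0.38.

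Mature neutrophil genes differed among themselves. The median of the 17 tested members was 2.34, or 2.31 when genes at the floor take their bound, 1.86 without active replicate 2 and 0.89 with the other column. DESeq2 called 7 as higher with all libraries and 3 without active replicate 2. S100a8 and S100a9, the calprotectin subunits, had log2 fold changes of 2.87 and 3.14, with 2569, 493 and 504 against 6472, 5378 and 7123 normalized counts of S100a8. Fpr1 and Fpr2, formyl peptide receptors, had 2.46 and 2.34. Csf3r, the G-CSF receptor, had 3461, 2464 and 3166 against 2462, 2843 and 3850, a fold change of -0.00 on the log2 scale, and Cxcr2, Clec4d, Clec4e and Trem1 also overlapped, with 0.05 to 0.46. Stfa1 had a fold change of 3.54, but belongs to a family of near-identical stefin genes, and its reads may be shared among them.

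Mast cell, basophil and eosinophil genes had a median of 1.13, with 17 of 19 members above 0. Of the 19, 9 were higher without overlap (47.4%, against 13.1% of all genes). DESeq2 called 7 as higher, 6 of them without active replicate 2. The median was 0.71 without active replicate 2 and 0.49 with the other column. Cpa3, a mast cell carboxypeptidase, had 1001, 442 and 969 normalized counts in active and 3199, 2201 and 1449 in transplant HSC. Fcer1a, a chain of the IgE receptor, had 53.4, 32.2 and 43.0 against 300, 202 and 145, and Ms4a2, another chain, 370, 330 and 553 against 1465, 1230 and 611. Hdc, histidine decarboxylase, showed the split by replicate most clearly, with 1739, 1565 and 1814 against 8905, 5367 and 1689. The eosinophil genes Epx and Prg2 overlapped.

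Monocyte and macrophage genes had a median of 0.74, or 0.50 without active replicate 2 and 0.09 with the other column. Of 19 members, 5 were higher without overlap (26.3%, against 13.1% of all genes). DESeq2 called 3 as higher, 2 of them without active replicate 2. Ly6c2, a surface marker of monocytes and granulocyte progenitors, had 4183, 742 and 1941 normalized counts in active and 8507, 8159 and 9778 in transplant HSC. Ccr2, the chemokine receptor of monocyte exit, had 15930, 9491 and 10890 against 6069, 7149 and 10870, a fold change of -0.60 with overlapping groups. Csf1r, the receptor of macrophage colony-stimulating factor, overlapped. The summed counts of the primary granule list were 402100, 194800 and 268300 in active and 474400, 503300 and 569400 in transplant HSC, and those of the specific granule list 40900, 15050 and 20990 against 94990, 77630 and 61950. Active replicate 1 was the highest active library in both sums.

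Genes of multipotent progenitors and lymphoid priming were lower in transplant HSC. The median of 21 tested members was -1.18, 12 did not overlap (57.1%, against 12.1% of all genes) and DESeq2 called 10 as lower, 5 without active replicate 2. The median was -0.85 without active replicate 2 and -0.48 with the other column. Dntt, terminal transferase, had 274, 910 and 789 normalized counts in active and 23.9, 0 and 56.0 in transplant HSC. Rag1, of the antigen receptor recombinase, had 17.8, 87.1 and 37.2 against 5.61, 0 and 0.41, and Il7r, the interleukin 7 receptor, 68.8, 268 and 154 against 47.7, 11.0 and 22.3. Irf8, a factor of monocyte, dendritic and B lineages, had 3582, 3569 and 2742 against 1152, 1495 and 1505, with DESeq2 calls in both settings. Among these, active replicate 2 was the highest library for Dntt, Rag1 and Il7r and active replicate 1 the lowest of its group.

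Not all members of that list were lower. Notch1 had 2289, 2190 and 2191 against 2190, 2519 and 2366 normalized counts, a fold change of 0.08. Cd52 and Wfdc17 had 1.11 and 1.08 and overlapped. Gpr171 had 1030, 1558 and 1222 against 617, 623 and 631, a tight transplant group with a fold change of -1.003, which DESeq2 called with and without active replicate 2.

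Other lymphoid lists and the dendritic list also had medians below 0. B and plasma cell genes had a median of -1.23 over 7 tested members, 3 of them at the floor in transplant HSC, and -0.78 with these at their bound. Blk, described above, was the limma call. Cd79b, of the B cell receptor, had 202, 174 and 185 normalized counts in active and 128, 96.1 and 149 in transplant HSC. The T and NK cell list had 7 tested members and a median of -0.82, which was 0.19 between the replicate 3 libraries. Zap70 was its limma call. The members above 0 were Nkg7, a cytotoxic granule protein also made in myeloid progenitors, and Gzmb, granzyme B, with fold changes of 1.14 and 1.13. The dendritic cell list had a median of -0.71, or -0.65 without active replicate 2 and -0.41 with the other column. Of 13 members, 5 were lower without overlap (38.5%, against 12.1% of all genes). DESeq2 called 4 as lower, Flt3, Tcf4, Runx2 and Ly6d, and 2 without active replicate 2. Tcf4, which specifies plasmacytoid dendritic cells, had 2109, 2521 and 2518 against 1556, 1425 and 1178.

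**Figure D3:**
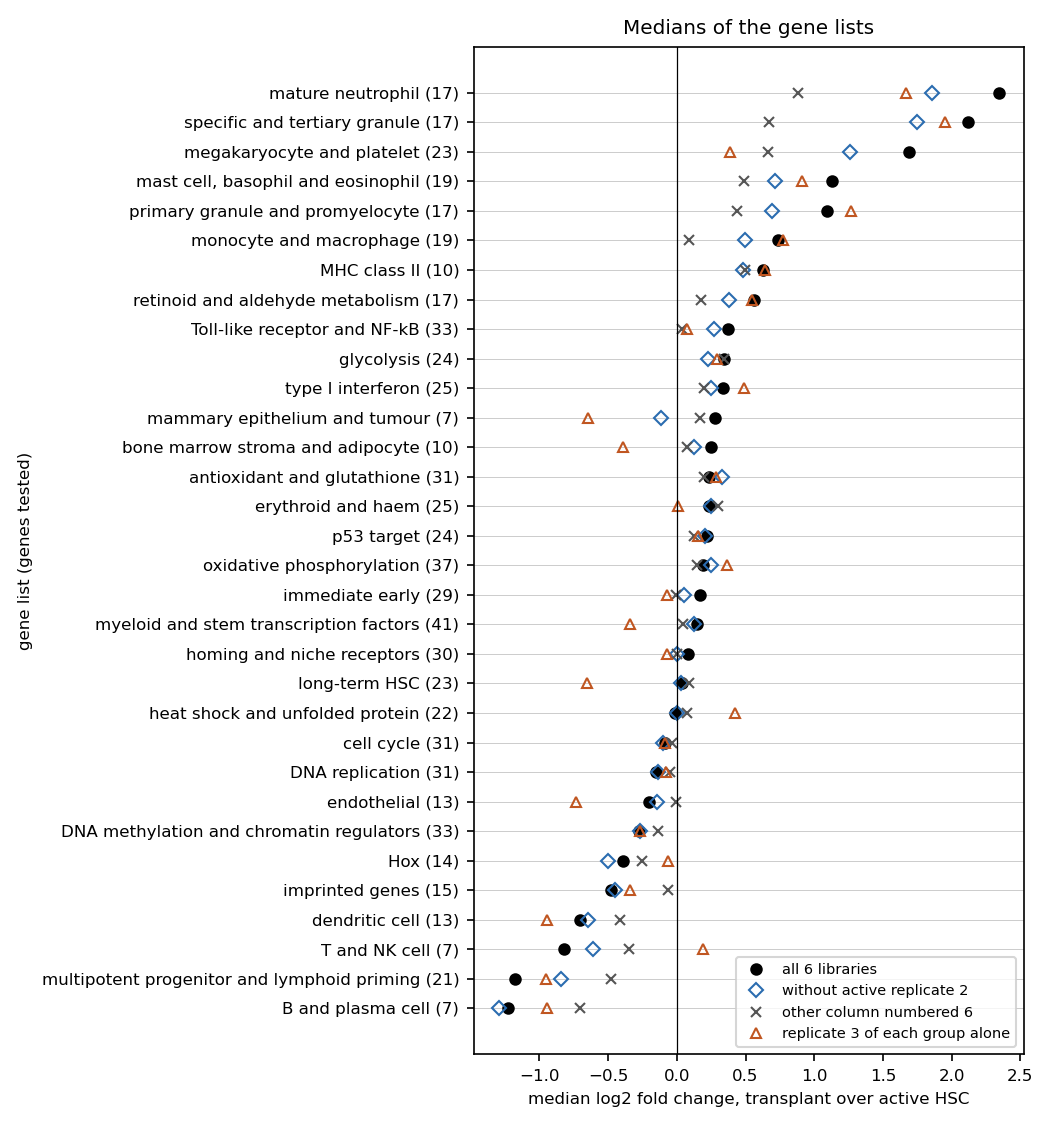
Median log2 fold change of transplant over active HSC for each of the 32 gene lists (members tested in parentheses). Filled circles use all 6 libraries, diamonds leave out active replicate 2, crosses use the other column numbered 6, and triangles are the difference between the replicate 3 libraries alone; crosses lie nearer to 0 than circles for the lists at both ends, and the megakaryocyte triangle (0.39) lies far below its circle (1.69).

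Genes of long-term HSC had a median of 0.04, with 12 members above 0 and 11 below. The median was 0.22 between replicates 1 and 2 of the groups and -0.66 between the replicate 3 libraries. Of 23 tested members 4 were higher and 4 lower without overlap (17.4% each, near the 13.1% and 12.1% of all genes), and DESeq2 called 3 as higher and 5 as lower. Vwf, Slamf1 and Pdzk1ip1 were those called higher. Slamf1, which encodes the stem cell marker CD150, had 79.5, 56.3 and 69.5 normalized counts in active and 297, 141 and 101 in transplant HSC. Hlf, Fgd5, Nkx2-3 and Prdm16 were called lower, and so was Cd34, which stands in the list but marks progenitors. Cd34 had 8911, 16920 and 14290 against 8340, 6839 and 5890, and Fgd5 43.9, 113 and 56.7 against 25.3, 15.8 and 4.06. Without active replicate 2 the calls were Vwf and Pdzk1ip1 above, and Nkx2-3 and Prdm16 below. Nkx2-3, a homeobox factor, had 122, 217 and 145 against 64.5, 32.9 and 20.7, and its fold change of -2.12 became 0.53 with the other column, which held 0. Kit had 5291, 6130 and 7271 against 5654, 6914 and 6535 normalized counts and Procr 74.7, 93.8 and 91.4 against 87.0, 73.0 and 30.8, both with overlap.

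Transcription factors of stem and myeloid cells were mixed, with a median of 0.15. Among 41, DESeq2 called 8 as higher and 7 as lower, against 5.55% and 2.71% of all genes. Without active replicate 2 it called 3 higher and 3 lower, against 2.27% and 0.873% of all genes. Among those higher with all libraries were Cebpa, Cebpd, Cebpe, Gfi1, Gata1, Fli1 and Nfe2. Those lower were Runx3, Myc, Irf8, Tcf3, Bcl11a, Nfix and Bach2. Bach2, a repressor that sustains lymphoid fates, had 85.4, 153 and 146 normalized counts in active and 18.2, 14.6 and 26.4 in transplant HSC. Bcl11a, needed for lymphoid development, had 1164, 1926 and 1685 against 833, 712 and 885. Gata1, of the erythroid and megakaryocyte path, had 203, 188 and 400 against 926, 691 and 388 and overlapped through the replicate 3 libraries.

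Hox genes and chromatin regulators were more often lower than higher. Of 14 tested Hox genes 5 were lower (35.7%) and 1 higher (7.14%) without overlap, against 12.1% and 13.1% of all genes. The Hox median was -0.395, or -0.504 without active replicate 2 and -0.255 with the other column. It was -0.068 between the replicate 3 libraries, and 2 members were at the floor in active HSC. DESeq2 called 4 as lower, Hoxa3, Hoxa5, Hoxa7 and Hoxa9, and 2 without active replicate 2. Hoxa9, which promotes self-renewal, had 1266, 1772 and 1152 normalized counts in active and 377, 534 and 747 in transplant HSC, a fold change of -1.37 that became 0.03 with the other column. Of 33 DNA methylation and chromatin genes 14 were lower without overlap (42.4%, against 12.1% of all genes) and none higher. Their median was -0.27 with all libraries and without active replicate 2, and -0.14 with the other column. Tet1, a methylcytosine dioxygenase, had 478, 514 and 781 against 156, 220 and 284, Dnmt3b, a de novo methyltransferase, 1702, 3298 and 2922 against 1108, 1161 and 1242, and Cbx2, of the Polycomb complex, 590, 760 and 637 against 267, 287 and 411. DESeq2 called 6 as lower, 3 without active replicate 2, and 1 as higher, Idh1. Imprinted genes had a median of -0.48, or -0.45 without active replicate 2 and -0.07 with the other column. It was 0.15 between replicates 1 and 2 of the groups. Meg3 and Rian, noncoding RNAs of 1 locus, had fold changes of -2.41 and -1.83.

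Metabolic and defence genes showed smaller differences. In the antioxidant and glutathione list 10 of 31 were higher and 2 lower without overlap (32.3% and 6.45%, against 13.1% and 12.1% of all genes). Gstm1, a glutathione transferase, had 3611, 1165 and 2222 normalized counts in active and 6088, 6317 and 9378 in transplant HSC, and Mgst2, a microsomal one, 415, 131 and 144 against 1212, 916 and 997. Alox5, 5-lipoxygenase, had 1635, 1219 and 2267 against 6608, 6081 and 2880. In the retinoid list DESeq2 called Dhrs3 and Rdh12, both retinaldehyde reductases, beside Aldh1a1, and Dhrs3 had 282, 220 and 242 against 908, 674 and 442. Glycolysis genes had a median of 0.34, with Hk3, a hexokinase of myeloid cells, at 13200, 7525 and 11040 against 19470, 19760 and 17550. Oxidative phosphorylation genes had 0.19 and no DESeq2 call among 37.

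MHC class II genes had a median of 0.62, with 4 of 10 higher without overlap (40%, against 13.1% of all genes). The median was 0.48 without active replicate 2 and 0.50 with the other column. DESeq2 called 4 as higher, and 1 without active replicate 2. H2-Ab1, an antigen-presenting chain, had 228, 151 and 209 normalized counts in active and 838, 350 and 449 in transplant HSC. Type I interferon genes had a median of 0.34, with 9 of 25 higher and 2 lower without overlap (36% and 8%, against 13.1% and 12.1% of all genes). Ifit2, an interferon-induced RNA-binding protein, had 339, 264 and 458 against 752, 765 and 742, a narrow transplant group, with DESeq2 calls with and without active replicate 2. Of the Toll-like receptor and NF-kB list 7 of 33 were higher without overlap (21.2%, against 13.1% of all genes). Its median was 0.37, or 0.27 without active replicate 2 and 0.04 with the other column. Tlr6 had 119, 97.8 and 106 against 300, 269 and 262, and Il1rn, the interleukin 1 receptor antagonist, 43.9, 16.1 and 32.7 against 288, 150 and 79.5. Il1r1, the receptor itself, had 2247, 3507 and 3485 against 2339, 1557 and 914, and DESeq2 called it lower with all libraries (adjusted p-value 0.0298) and not without active replicate 2 (0.253).

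Among homing receptors, Vcam1, the adhesion ligand of stem cells, had 52.2, 25.5 and 33.1 normalized counts in active and 258, 191 and 163 in transplant HSC, a fold change of 2.47 that was 1.24 with the other column. Cxcr4, the receptor that retains stem cells in the marrow, had 2754, 2584 and 2111 against 3697, 3245 and 3629, a fold change of 0.51. Itgb1 and Itga4 overlapped. Vcam1 is also made by stromal cells and macrophages. In the stroma and adipocyte list 10 of 18 genes were tested, with 2 higher without overlap (20%, against 13.1% of all genes). C1qa, C1qb and C1qc of macrophages had at most 32.3 normalized counts in transplant HSC. C1qb had 7.12, 4.02 and 1.66 against 32.3, 26.8 and 30.0. The part of other cells in the Vcam1 difference was not tested.

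Cell cycle genes had a median of -0.09, with 7 of 31 lower and 1 higher without overlap (22.6% and 3.23%), and DNA replication genes -0.15, with 6 of 31 lower and 1 higher (19.4% and 3.23%). Of all genes, 12.1% were lower and 13.1% higher without overlap. Neither list had a DESeq2 call. Mki67 had 34390, 33680 and 40890 normalized counts in active and 29240, 32820 and 32000 in transplant HSC, a difference of -0.21 that did not pass the test. Immediate early genes had a median of 0.17, heat shock genes -0.01, p53 targets 0.22, erythroid genes 0.23, homing genes 0.08 and endothelial genes -0.21. In the list of mammary epithelium and tumour 7 of 17 genes were tested, with a median of 0.28 that was -0.11 without active replicate 2, and Erbb3 was the only DESeq2 call, with 85.4, 93.8 and 131 against 196, 231 and 299.

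How the libraries stood to each other was described by list scores, the mean log2(normalized count + 1) of a list on a scale joined over both HSC tables. For the megakaryocyte list the scores were 8.86, 8.11 and 8.89 in active and 9.47 to 10.86 in transplant HSC, 7.68 to 8.25 in sedentary HSC and 10.87 in the other column. For the specific granule list they were 8.66, 6.90 and 7.40 in active and 9.57 to 9.86 in transplant HSC, 6.08 to 6.88 in sedentary HSC and 11.35 in the other column. For lymphoid priming they were 7.93, 8.73 and 8.23 in active and 6.16 to 7.13 in transplant HSC, 8.35 to 8.97 in sedentary HSC and 6.21 in the other column. Active replicate 2 thus lay with or just above the sedentary libraries in these 3 lists, and the other column with or beyond the transplant libraries, while active replicate 1 lay nearer to transplant HSC than active replicate 2 did. Of the shared genes, 8.91% differed at least 2-fold from the transplant mean in active replicate 1, 15.9% in active replicate 2, 13.8% in active replicate 3, 8.9% in the other column and 13.5% to 18.2% in sedentary libraries. With the other column, the limma medians of these 3 lists kept their sign and were smaller, at 0.67, 0.67 and -0.48.

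**Figure D4:**
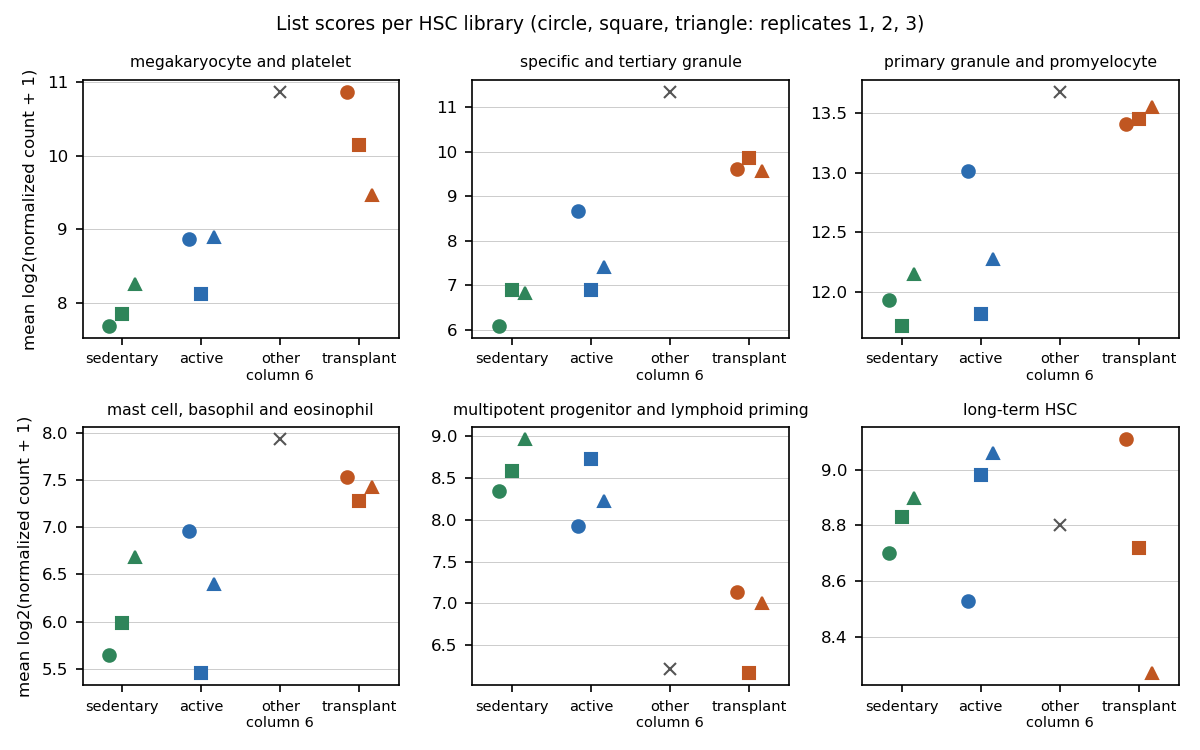
Mean log2(normalized count + 1) of 6 gene lists in each HSC library on the joined scale, by group (sedentary, active, other column numbered 6, transplant), with circle, square and triangle for replicates 1, 2 and 3. Transplant libraries lie above the active ones in the megakaryocyte, granule and mast cell panels and below them for lymphoid priming, the long-term HSC panel overlaps, and the other column lies within or beyond the transplant libraries in the panels other than long-term HSC, where it also lies among the active ones.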

How the data were processed

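The deposited HSC tables hold normalized counts (signal) that the authors made by dividing gene counts by 1 factor per library. At a tolerance of 0.01 reads, 100% of values were whole reads. Build mm10 is named per the submitters' processing notes, the labels name DEBrowser, and the aligner, counter, annotation and counting strand are not given in the sources used here. The authors' deposited table also holds their log2 fold change and adjusted p-value. In it 21 symbols had turned into dates.

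Transplant and active HSC (3 libraries each) were compared with limma 3.58.1 (R 4.3.3, no trend), two-sided, on log2(value + 1), for genes averaging 1 or more in one of the groups, with Benjamini-Hochberg adjustment. DESeq2 1.42.0, edgeR 4.0.16 and limma-voom used the recovered reads. The other column numbered 6 was placed on a joint scale with the transplant table. Coordinates and lengths came from GENCODE M21 (13019 of 13636 symbols matched). Only the main limma fit was tested on simulated data, and the genes changed there were not low in counts. DESeq2, edgeR and limma-voom were not tested in this way.

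Deviations of same-numbered replicates correlated at 0.102, 0.109 and 0.306 across 12517 genes, each above 0.1. On that basis alone they were taken as pairs, in the replicate block only. The main fit did not pair libraries. Correlations of differently numbered replicates ran from -0.241 to 0.115 (active 1 with transplant 2), so the numbers do not single out every pair. Named were the limma calls, up to 10 genes per direction by size (50 or more normalized counts on average in one group, groups not overlapping, DESeq2 call with and without active replicate 2, predicted genes left out), and the 3 highest members of each list. Members and lists were chosen with earlier results of these data known. Tumour libraries were not used. Some genes are not reported here.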

Additional observations from a re-analysis of the deposited data

How the results depend on the processing

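The count of 7 called genes depended on the processing. It was 1126 with DESeq2, 428 with DESeq2 without active replicate 2 and 2 with DESeq2 and the other column numbered 6. edgeR called 1 gene, and 0 without active replicate 2 (1532 at an unadjusted p-value under 0.05). limma with a trend called 19, and 0 without active replicate 2 (1604 unadjusted), and limma-voom called 97. limma with the other column called 1, with a term for name style 0 (2748 unadjusted), with the replicate block, which pairs libraries by number, 0 (2832 unadjusted), and on replicates 1 and 2 alone 0 (1889 unadjusted). Leaving out 1 library gave 0 to 79 calls. TMM scaling, upper quartile scaling, a pseudocount of 0.1 or 10, no filter and a minimum mean of 10 gave 5 to 8.

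The share of genes whose groups did not overlap, 25.2%, was 6% with the other column, 57% on replicates 1 and 2 alone and 29.4% to 46.4% without 1 library. Shares of smaller groups are higher by construction. Larger list medians changed sign under DESeq2 with the other column for specific granules (-0.079), mature neutrophils (-0.118), monocytes (-0.049) and the Toll-like receptor list (-0.026), for B cells under edgeR without active replicate 2 (0.148), for T and NK cells under limma-voom (0.010) and for imprinted genes on replicates 1 and 2 alone (0.146). The cause was not tested. Medians nearer to 0 also crossed it: the mammary list reached -0.506, endothelial 0.214, immediate early -0.126, long-term HSC -0.113, heat shock 0.114, stroma -0.07, oxidative phosphorylation -0.052 and homing -0.079. Of 2831 values of 119 named genes, 84 lost the call and 103 gained one. The sign changed at 83 values of 27 genes, none called in either setting. Of these genes 5 had a log2 fold change of at least 1 in size: with DESeq2 and the other column Chil3 (-0.271), Cd177 (-0.363), S100a8 (-0.317) and S100a9 (-0.738), and with limma and the other column Hoxa9 (0.034). With 3 libraries per group and 1 of them in doubt, the precision is limited.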
